A study of Homo sapiens with 12 samples.

Results

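The genes described here encode 3 ligands and 7 receptors of the tumour necrosis factor (TNF) superfamily: the ligands TNFSF15, TNFSF10 and TNFSF9, the TRAIL receptors TNFRSF10A, TNFRSF10B and TNFRSF10D, and the receptors FAS, TNFRSF1A, TNFRSF21 and TNFRSF12A. They were chosen by gene symbol, as 10 of the 61510 genes in the count table, and all 10 passed the low-count filter. The choice was made with measured values of these libraries known. TNFSF15 was selected on its fall with gambogenic acid in the knockdown line, a contrast that uses both the treated and the solvent libraries of that line. TNFSF15 levels in the knockdown line are therefore given as a description with no test. Any adjusted p given for a member, TNFSF15 in the control line included, places it among all genes in the fit and is no independent support. In brief, the knockdown line held far more TNFSF15 transcript and more TNFSF10 transcript, and less TNFSF9 and TNFRSF21 transcript, than the control line. Gambogenic acid was followed by higher TNFRSF10A and TNFRSF10B transcript levels in each line and by lower TNFRSF1A levels in each line.

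TNF superfamily ligands bind as trimers to receptors on the cell surface. Death receptors carry a cytoplasmic death domain, which binds adaptor proteins such as FADD or TRADD; a complex that holds FADD and caspase-8 can start apoptosis, while a complex with TRADD, RIPK1 and TRAF proteins can turn on NF-kB. Decoy receptors bind the ligand without a working death domain. Lung adenocarcinoma cells commonly express TRAIL receptors and FAS, and many such lines are resistant to TRAIL unless another agent is added. NRF2, encoded by NFE2L2, is the transcription factor that turns on antioxidant and detoxification genes.

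RNA sequencing of total RNA was used to compare 4 groups of A549/DDP cells, a line derived from the human lung adenocarcinoma line A549 and resistant to cisplatin, with 3 libraries in each. The groups were shNRF2 cells given GNA (gambogenic acid, a xanthone from gamboge resin) at 4 µM, shNRF2 cells given the solvent DMSO, shNC cells given GNA at 4 µM, and shNC cells given DMSO. Exposure lasted 24 h and began at 70% confluence. All 4 groups thus carried a short hairpin, either against NRF2 or the control hairpin shNC, and all were grown in medium with cisplatin (DDP) at 1 µg/ml. The labels do not say whether a line was 1 clone or a pool, or whether each library had its own culture. The spread behind every p-value is thus that of these libraries and may be technical. An effect of the NRF2 hairpin cannot be told apart here from any other difference between the shNRF2 and shNC lines. Knockdown below stands for the contrast of these lines. NFE2L2 itself had 43.5 to 47.4 CPM, counts scaled to library size, in shNRF2 GNA and 47.8 to 53.2 CPM in shNRF2 DMSO libraries, against 82.9 to 90.1 CPM in shNC GNA and 74.3 to 81.5 CPM in shNC DMSO libraries, so a part of the transcript remained. Libraries held 12848607 to 17192671 counts. Summed CPM of 5 epithelial markers were 9443 to 9917 in shNRF2 GNA and 15264 to 15864 in shNRF2 DMSO, and 9728 to 10008 in shNC GNA and 15624 to 16520 in shNC DMSO; 5 leukocyte markers summed to at most 0.922 CPM, and 4 of 5 fibroblast and 4 of 5 alveolar type 2 markers stayed under 1 CPM. The epithelial sums were almost all KRT8 and KRT18. KRT8 averaged 7597 CPM in shNRF2 GNA and 12335 CPM in shNRF2 DMSO, and 7835 CPM in shNC GNA and 12815 CPM in shNC DMSO. Mean CDH1 and EPCAM levels were instead higher with GNA in each line, with libraries apart only for CDH1 in shNC cells. KRT19 stayed under 1 CPM. The lower sums with GNA thus describe KRT8 and KRT18 and not the 5 markers as a set. The part of this keratin shift in the results below was not tested. In shNC DMSO the library of replicate 1 differed more from the other 2 (chi-square of 8.05 and 6.31 per degree of freedom) than any other pair of libraries of 1 group did (2.27 to 5.31); leaving it out removed no call on a member and added those named below.

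The sequences just before the start sites of the 3 ligand genes are shown because these genes had the widest spread of group means among the members. Each is the 250 bases before the RefSeq start site on the gene's own strand, read 5′ to 3′ in GRCh38.p14. The TNFSF15 window is chr9:114792531-114792780 on the minus strand; its start site lies inside the gene of GENCODE 29, which begins at base 114806126, so it is a downstream start. The TNFSF10 window is chr3:172523431-172523680 on the minus strand, and the TNFSF9 window is chr19:6530776-6531025 on the plus strand. Their RefSeq start sites, bases 172523430 and 6531026, also lie inside the GENCODE 29 genes, which begin at bases 172523507 and 6530999. Distances given below are from the RefSeq start sites. Capitals mark every match on either strand to 6 motifs: the NRF2 antioxidant response element core TGACNNNGC, the heat shock element core GAANNTTC, the AP-1 site TGANTCA, the ATF4 and CHOP composite site TGATGNAA, the NF-kB site and the TATA box TATAAA.
TNFSF15: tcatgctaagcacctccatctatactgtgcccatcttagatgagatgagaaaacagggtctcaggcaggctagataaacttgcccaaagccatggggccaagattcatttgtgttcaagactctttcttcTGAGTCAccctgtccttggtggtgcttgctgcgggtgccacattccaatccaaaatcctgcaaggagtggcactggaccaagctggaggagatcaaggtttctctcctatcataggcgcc
TNFSF10: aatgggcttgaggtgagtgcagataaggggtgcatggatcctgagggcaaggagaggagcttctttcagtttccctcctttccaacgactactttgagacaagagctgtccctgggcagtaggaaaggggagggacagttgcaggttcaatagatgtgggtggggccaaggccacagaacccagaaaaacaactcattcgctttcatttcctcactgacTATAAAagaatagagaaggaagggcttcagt
TNFSF9: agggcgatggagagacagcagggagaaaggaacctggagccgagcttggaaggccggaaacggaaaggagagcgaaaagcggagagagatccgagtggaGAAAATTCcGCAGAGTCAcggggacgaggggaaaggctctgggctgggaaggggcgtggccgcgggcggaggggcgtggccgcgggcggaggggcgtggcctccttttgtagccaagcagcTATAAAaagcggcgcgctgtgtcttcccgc
In the TNFSF15 window the capitals are an AP-1 match that starts 120 bases before the start site, and in the TNFSF10 window a TATA box match 31 bases before it. In the TNFSF9 window a heat shock match starts 151 bases before the start site, an antioxidant response match on the opposite strand starts 142 bases before it, with 1 base between them, and a TATA box match starts 30 bases before it. Among 35114 RefSeq windows of 300 bases (250 before to 50 after a start), 13.3% held the antioxidant response core, 6.77% the heat shock core, 7.71% the AP-1 site, 3.62% the ATF4 and CHOP site, 11.3% the NF-kB site and 11.5% the TATA box. A match is a description of the letters and not evidence of binding. Windows were found for 6 of the 10 members.

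Scaled for annotated exon length, TNFRSF12A, TNFRSF10A, TNFRSF10B and TNFRSF1A stood above the 3 ligands in all 4 groups. TNFRSF10D and TNFRSF21 came closer to the ligands. FAS also stood above the ligands in all 4 groups if its counts come from annotated exon alone. In shNC DMSO cells, mean CPM per kb of annotated exon was 43.8 ± 3.93 for TNFRSF12A, 23.9 ± 0.466 for TNFRSF10A, 16.8 ± 0.524 for TNFRSF1A, 16.3 ± 1.11 for TNFRSF10B and 15.6 ± 0.695 for FAS (SD, n = 3). TNFRSF1A, TNFRSF10B and FAS overlapped in their library values there and have no set order. TNFRSF10D at 4.75 ± 0.341 and TNFRSF21 at 4.68 ± 0.381 CPM per kb also overlapped, and below them came TNFSF9 at 3.00 ± 0.610, TNFSF10 at 0.773 ± 0.0862 and TNFSF15 at 0.383 ± 0.0908 CPM per kb. TNFRSF12A ranked first and TNFRSF10A second by mean in all 4 groups, though TNFRSF10A and TNFRSF10B overlapped in shNRF2 DMSO cells. The bottom of the order moved: TNFSF15 was last of the 10 in shNRF2 GNA cells, shNC GNA cells and shNC DMSO cells, and ranked above TNFRSF21, TNFSF9 and TNFSF10 in shNRF2 DMSO cells, at 3.46 ± 0.181 CPM per kb, where it overlapped with TNFRSF21; in shNRF2 GNA cells it overlapped with TNFSF10. In shNC GNA cells TNFSF9, at 4.12 ± 0.644 CPM per kb, ranked above TNFRSF10D, at 3.80 ± 0.540 CPM per kb, with overlapping libraries. The deposited FPKM of FAS implies a length of 29.313 kb, against 4.253 kb of exon in GENCODE 29. The other 9 implied lengths were 0.971 to 1.05 times the exon length. The FPKM of FAS thus cannot be set beside those of other genes. The region counted for FAS is not given, so its level per kb and its place in the order above are uncertain too.

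**Figure D1:**
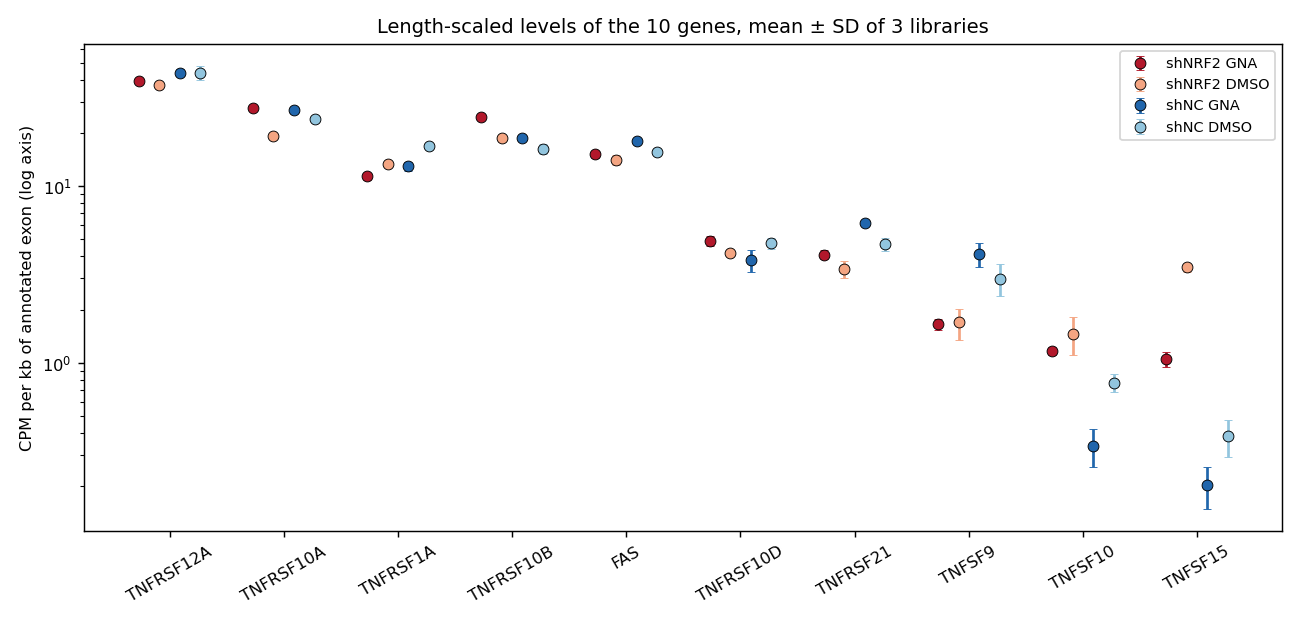
Mean CPM per kb of annotated exon (log axis) for each gene in shNRF2 GNA, shNRF2 DMSO, shNC GNA and shNC DMSO cells, with bars for the SD of 3 libraries. TNFRSF12A is the highest gene in every group. TNFSF15 spans the widest range, with 3.46 CPM per kb in shNRF2 DMSO and 0.203 CPM per kb in shNC GNA cells. The level of FAS assumes counts from annotated exon alone.

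TNFSF15 (TL1A), the ligand of death receptor TNFRSF25 and a cytokine first known from endothelial cells, showed the widest range of the 10 genes. The gene lies on chromosome 9, bases 114784635 to 114806126 of GRCh38. Its level was 9.18, 7.53 and 8.17 CPM in the shNRF2 GNA libraries and 28.9, 26.2 and 26.8 CPM in the shNRF2 DMSO libraries, against 1.80, 1.11 and 1.90 CPM in the shNC GNA libraries and 3.65, 3.18 and 2.24 CPM in the shNC DMSO libraries. No 2 groups overlapped, and every shNRF2 library stood above every shNC library. In DMSO the shNRF2 level was 9.03-fold the shNC level, and in GNA it was 5.17-fold. GNA libraries had 3.30-fold less TNFSF15 than DMSO libraries in shNRF2 cells; this contrast chose the gene and was not tested. In shNC cells TNFSF15 fell with GNA by 0.92 ± 0.22 on the log2 scale (SE; edgeR, Benjamini-Hochberg adjusted p = 0.00232), on counts of 18 to 31 in GNA libraries and 34 to 53 in DMSO libraries. This p is no independent support, since the members were chosen with earlier results known and the fit takes its spread from all 12 libraries. In bulk libraries fewer cells that express a gene and less transcript per cell cannot be told apart. Endothelial markers summed to at most 0.67 CPM in any library. The receptor TNFRSF25 was near the detection limit, with group means of 1.35 CPM in shNRF2 GNA, 0.795 CPM in shNRF2 DMSO, 1.35 CPM in shNC GNA and 0.988 CPM in shNC DMSO, and was not called in any comparison (adjusted p = 0.158 to 0.992).

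TNFSF10 (TRAIL), the ligand of the TRAIL receptors, was also higher in shNRF2 cells. Its gene is on chromosome 3, bases 172505508 to 172523507. It had 3.84, 4.24 and 4.06 CPM in shNRF2 GNA and 5.32, 3.75 and 6.12 CPM in shNRF2 DMSO libraries, against 1.51, 1.05 and 0.981 CPM in shNC GNA and 2.34, 2.88 and 2.83 CPM in shNC DMSO libraries. Every shNRF2 library was above every shNC library, the GNA and DMSO libraries overlapped in shNRF2 cells, and they were apart in shNC cells. TNFSF10 was higher in shNRF2 than in shNC cells by a log2 fold change of 1.79 ± 0.25 in GNA (adjusted p = 3.71e-06) and of 0.91 ± 0.22 in DMSO (adjusted p = 0.00155). With GNA it fell by 1.20 ± 0.26 on the log2 scale in shNC cells (adjusted p = 0.000873), and its log2 fold change was -0.32 ± 0.21 in shNRF2 cells (adjusted p = 0.246). The difference between these responses, 0.88 ± 0.34, did not pass the threshold (adjusted p = 0.124, 95% interval 0.19 to 1.57 before adjustment). The shNC GNA libraries held only 16 to 21 counts of this gene.

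TNFSF9 (the ligand of the T cell costimulatory receptor TNFRSF9, also named CD137) ran the other way between the lines. It is encoded on chromosome 19, bases 6530999 to 6535928. It had 2.56, 2.97 and 2.70 CPM in shNRF2 GNA and 2.63, 2.37 and 3.44 CPM in shNRF2 DMSO libraries, against 6.68, 8.01 and 5.88 CPM in shNC GNA and 5.99, 5.02 and 3.95 CPM in shNC DMSO libraries. Every shNRF2 library was below every shNC library, and within each line the GNA and DMSO libraries overlapped. TNFSF9 was lower in shNRF2 cells by a log2 fold change of -1.32 ± 0.20 in GNA (adjusted p = 1.33e-05) and of -0.83 ± 0.21 in DMSO (adjusted p = 0.00291). The log2 fold change with GNA was 0.46 ± 0.19 in shNC cells (adjusted p = 0.0605), and it passed the threshold without shNC DMSO replicate 1 (adjusted p = 0.0250) or shNC GNA replicate 3 (adjusted p = 0.0451), with upper-quartile factors (0.0476), with library totals (0.0212) and in the limma fits (0.0227 and 0.0292). In shNRF2 cells it was -0.03 ± 0.23 (adjusted p = 0.94), a value that turns positive when libraries are scaled by their totals. Its receptor TNFRSF9 averaged 2.79 CPM in shNRF2 GNA, 0.678 CPM in shNRF2 DMSO, 3.99 CPM in shNC GNA and 2.00 CPM in shNC DMSO cells. TNFRSF9 rose with GNA by a log2 fold change of 1.99 in shNRF2 cells (adjusted p = 2.11e-05) and of 0.99 in shNC cells (adjusted p = 0.00372).

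The receptors TNFRSF10A (DR4) and TNFRSF10B (DR5), which bind TRAIL and carry a death domain, rose with GNA in each line. They lie with TNFRSF10D on chromosome 8, TNFRSF10A at bases 23190452 to 23225126, TNFRSF10B at 23020133 to 23069179 and TNFRSF10D at 23135588 to 23164030. TNFRSF10A had 79.7, 81.3 and 83.8 CPM in shNRF2 GNA and 56.5, 55.1 and 58.0 CPM in shNRF2 DMSO libraries, against 77.5, 78.5 and 83.4 CPM in shNC GNA and 69.3, 72.0 and 70.7 CPM in shNC DMSO libraries. The 2 GNA groups overlapped, the shNRF2 DMSO libraries were the lowest, and the shNC DMSO libraries lay between. The log2 fold change with GNA was 0.53 ± 0.06 in shNRF2 cells (adjusted p = 3.27e-08) and 0.18 ± 0.06 in shNC cells (adjusted p = 0.0185). The rise was larger in shNRF2 than in shNC cells by 0.35 ± 0.08 on the log2 scale (adjusted p = 0.00697). Between the lines, TNFRSF10A was lower in shNRF2 cells in DMSO by a log2 fold change of -0.32 ± 0.06 (adjusted p = 7.79e-05), and in GNA the difference was 0.03 ± 0.06 (adjusted p = 0.733, 95% interval -0.08 to 0.15). Without shNC GNA replicate 3 the rise in shNC cells did not pass the threshold (adjusted p = 0.107).

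TNFRSF10B was highest where knockdown and GNA were combined. It had 129, 123 and 129 CPM in shNRF2 GNA and 100.2, 94.1 and 93.4 CPM in shNRF2 DMSO libraries, against 93.6, 94.2 and 101 CPM in shNC GNA and 88.0, 77.5 and 86.6 CPM in shNC DMSO libraries. The shNRF2 GNA libraries stood above all others, the shNRF2 DMSO and shNC GNA libraries overlapped, and the shNC DMSO libraries were the lowest. The log2 fold change with GNA was 0.40 ± 0.06 in shNRF2 cells (adjusted p = 2.84e-06) and 0.20 ± 0.06 in shNC cells (adjusted p = 0.0119), and the difference of 0.21 ± 0.08 did not pass the threshold (adjusted p = 0.136). TNFRSF10B was higher in shNRF2 than in shNC cells by 0.40 ± 0.06 in GNA (adjusted p = 5.22e-06) and by 0.19 ± 0.06 in DMSO (adjusted p = 0.0123), both as log2 fold changes. The rise with GNA in shNC cells was not called without shNC DMSO replicate 2 (adjusted p = 0.103) or shNC GNA replicate 3 (adjusted p = 0.0744), nor was the difference in DMSO without shNC DMSO replicate 2 (adjusted p = 0.105) or shNRF2 DMSO replicate 1 (adjusted p = 0.0746).

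TNFRSF10D (DcR2), a TRAIL receptor with a truncated death domain that acts as a decoy, responded differently to GNA in the 2 lines. It had 17.6, 16.1 and 18.3 CPM in shNRF2 GNA and 15.1, 14.9 and 14.2 CPM in shNRF2 DMSO libraries, against 12.6, 12.1 and 15.6 CPM in shNC GNA and 16.6, 15.7 and 18.1 CPM in shNC DMSO libraries. GNA libraries were all above DMSO libraries in shNRF2 cells and all below them in shNC cells, and in GNA the shNRF2 libraries were all above the shNC libraries. The log2 fold change with GNA was 0.23 ± 0.11 in shNRF2 cells (adjusted p = 0.105) and -0.32 ± 0.11 in shNC cells (adjusted p = 0.025). The change in shNRF2 cells passed the threshold with library totals (adjusted p = 0.0376) and in the limma fits (0.0413 and 0.0422). The difference between the responses was 0.55 ± 0.15 (adjusted p = 0.0274). It missed the threshold without shNC DMSO replicate 3 (adjusted p = 0.0800), shNC GNA replicate 1 (0.0523) or 2 (0.0918), shNRF2 DMSO replicate 2 (0.0538) or 3 (0.0533), or shNRF2 GNA replicate 1 (0.0611) or 3 (0.0781), and in the limma fits (adjusted p = 0.0665 and 0.0666). The fall in shNC cells was likewise lost without shNC DMSO replicate 3 (adjusted p = 0.116), shNC GNA replicate 1 (0.085) or 2 (0.143), with library totals as the scaling (0.130), with no low-count filter (0.0659) and in the limma fits (0.118 and 0.111). In GNA, TNFRSF10D was higher in shNRF2 than in shNC cells by a log2 fold change of 0.36 ± 0.11 (adjusted p = 0.0128), a call lost without shNC GNA replicate 1 (adjusted p = 0.0568) or 2 (0.0880) or shNRF2 GNA replicate 3 (0.0634). In DMSO the log2 fold change was -0.19 ± 0.11 (adjusted p = 0.191).

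Per kb of exon, TNFRSF10D made up 8.55% ± 0.388 of the summed TNFRSF10A, TNFRSF10B and TNFRSF10D level in shNRF2 GNA cells and 9.95% ± 0.308 in shNRF2 DMSO cells, against 7.66% ± 0.726 in shNC GNA and 10.6% ± 0.538 in shNC DMSO cells (SD, n = 3). The GNA libraries had the lower decoy share in each line, with no overlap; an exact permutation test of 3 against 3 libraries cannot go below p = 0.1. The ratio of TNFRSF10B to TNFRSF10A per kb was 0.892 ± 0.0315 in shNRF2 GNA and 0.971 ± 0.0474 in shNRF2 DMSO cells, against 0.689 ± 0.00236 in shNC GNA and 0.681 ± 0.0583 in shNC DMSO cells, so the make-up of the death-domain pair differed between the lines by more than the spread between libraries. The other TRAIL receptors were close to absent from the counts: TNFRSF10C, a membrane decoy, had 0 to 8 counts and TNFRSF11B, a soluble decoy, had 0 to 3 counts in a library. TNFRSF10A shares 224 exon bases with the antisense gene TNFRSF10A-AS1, which had 2 to 18 counts, and TNFRSF10B shares 67 exon bases with RHOBTB2, which had 137 to 232 counts; whether counting used strand is not given in the sources used here.

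**Figure D2:**
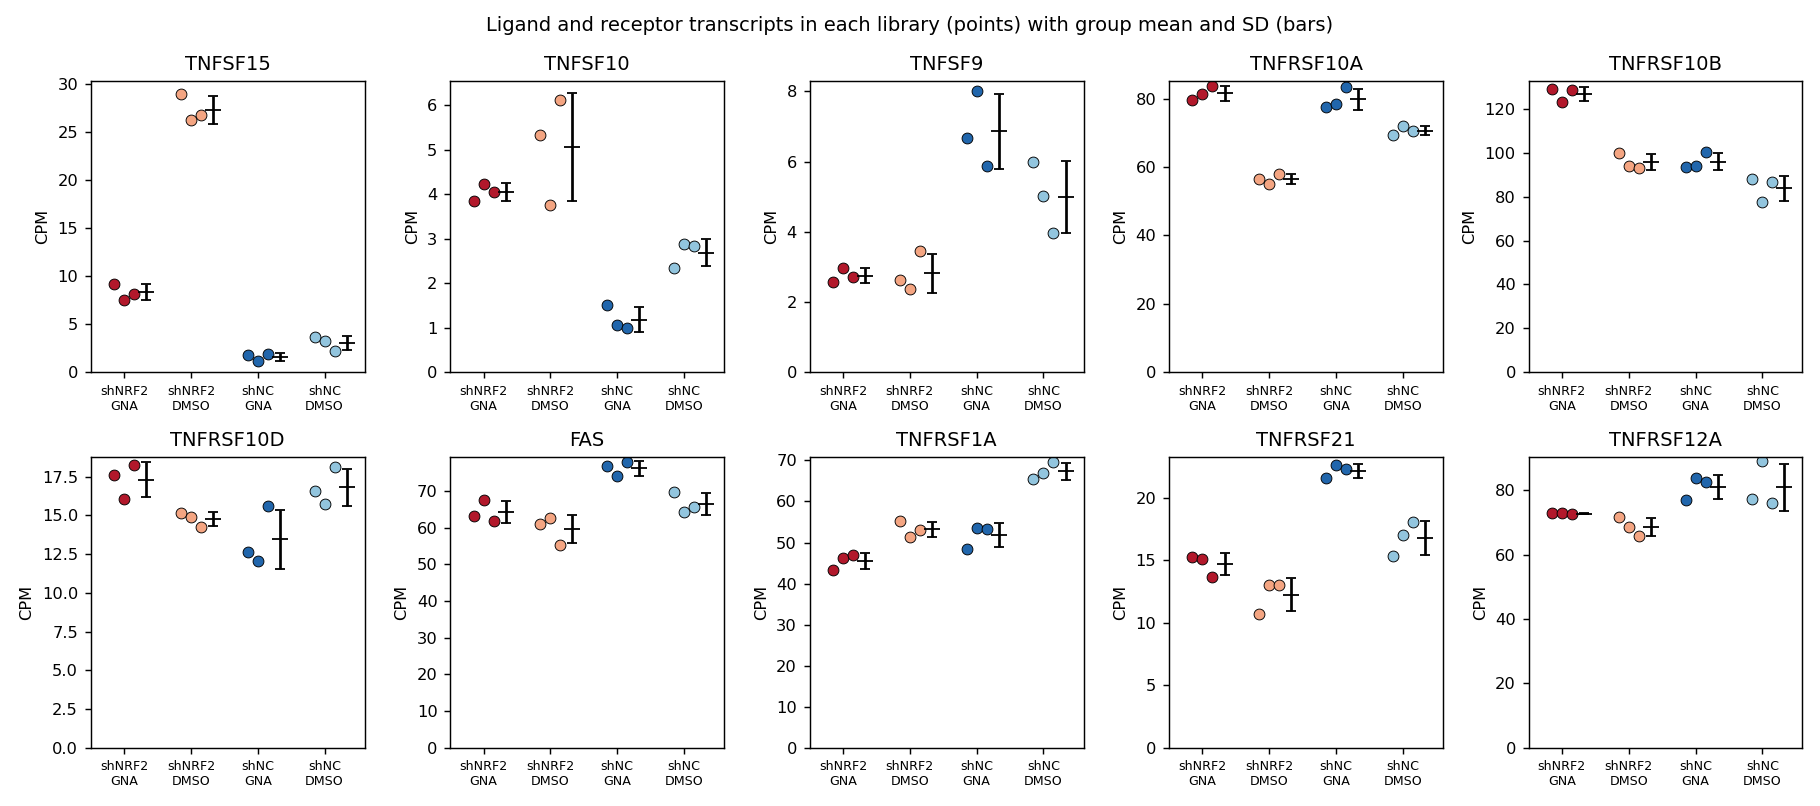
CPM in each library (points) with the group mean and SD (black bars), for the 10 genes in shNRF2 GNA, shNRF2 DMSO, shNC GNA and shNC DMSO cells; every axis starts at 0. The 3 shNRF2 DMSO libraries hold 26.2 to 28.9 CPM of TNFSF15, above all other libraries, and the 3 shNRF2 GNA libraries hold 123 to 129 CPM of TNFRSF10B, above all other libraries.

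FAS (CD95), the death receptor of Fas ligand, showed small differences between the groups. The gene lies on chromosome 10, bases 88990582 to 89015785. It had 63.2, 67.5 and 61.9 CPM in shNRF2 GNA and 60.9, 62.8 and 55.3 CPM in shNRF2 DMSO libraries, against 76.7, 74.0 and 77.8 CPM in shNC GNA and 69.8, 64.1 and 65.6 CPM in shNC DMSO libraries. The shNC GNA libraries were the highest, and the GNA and DMSO libraries of shNRF2 cells overlapped. FAS rose with GNA in shNC cells by a log2 fold change of 0.20 ± 0.06 (adjusted p = 0.0172), and the change in shNRF2 cells was 0.11 ± 0.06 (adjusted p = 0.219; 0.0423 with library totals). In shNRF2 against shNC cells it was lower in GNA, by a log2 fold change of -0.25 ± 0.06 (adjusted p = 0.00381), and the change in DMSO was -0.16 ± 0.06 (adjusted p = 0.0577). The rise in shNC cells was not called without shNC DMSO replicate 2 (adjusted p = 0.0782) or 3 (0.0588) or shNC GNA replicate 3 (0.0678), the difference in GNA was not called in the limma fits (adjusted p = 0.0672 and 0.0734), and the difference in DMSO was called without shNRF2 DMSO replicate 2 (adjusted p = 0.0461). FASLG, which encodes its ligand, had 0 to 3 counts in a library. FAS shares 380 exon bases with ACTA2 on the opposite strand, which had 141 to 267 counts. Since the FPKM of FAS imply a length of 29.313 kb, its counts may include reads from outside annotated exon. The CPM and fold changes of FAS carry the same doubt.

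TNFRSF1A (TNFR1), the main signalling receptor for TNF, was lower with GNA and lower in the knockdown line. Its gene is on chromosome 12, bases 6328757 to 6342114. It had 43.3, 46.2 and 46.9 CPM in shNRF2 GNA and 55.2, 51.4 and 53.0 CPM in shNRF2 DMSO libraries, against 48.4, 53.5 and 53.3 CPM in shNC GNA and 65.4, 67.0 and 69.6 CPM in shNC DMSO libraries. The shNC DMSO libraries were the highest, the shNRF2 GNA libraries were the lowest, and the other 2 groups overlapped. TNFRSF1A fell with GNA by 0.23 ± 0.07 on the log2 scale in shNRF2 cells (adjusted p = 0.00782) and by 0.38 ± 0.06 in shNC cells (adjusted p = 3.65e-05). In shNRF2 against shNC cells it fell by 0.19 ± 0.06 in GNA (adjusted p = 0.0325) and by 0.34 ± 0.06 in DMSO (adjusted p = 0.000127). The fall in shNRF2 cells was narrowly lost without shNRF2 GNA replicate 1 (adjusted p = 0.0506) and with library totals as the scaling (0.0507). The difference in GNA was lost without shNC GNA replicate 2 (adjusted p = 0.131) or 3 (0.115) or shNRF2 GNA replicate 1 (0.145) or 2 (0.0623), and with no low-count filter (0.0820). Its ligand gene TNF averaged 0.236 to 0.661 CPM over the groups.

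TNFRSF21 (DR6), a death-domain receptor best studied in neurons and lymphocytes, was lower in the knockdown line. The gene lies on chromosome 6, bases 47231532 to 47309905. It had 15.3, 15.1 and 13.7 CPM in shNRF2 GNA and 10.7, 13.0 and 13.0 CPM in shNRF2 DMSO libraries, against 21.6, 22.6 and 22.3 CPM in shNC GNA and 15.3, 17.0 and 18.1 CPM in shNC DMSO libraries. GNA libraries were above DMSO libraries in each line, and shNRF2 libraries were below shNC libraries at each treatment. It fell in shNRF2 cells by 0.59 ± 0.10 on the log2 scale in GNA (adjusted p = 4.59e-05) and by 0.46 ± 0.10 in DMSO (adjusted p = 0.00101). With GNA it rose by a log2 fold change of 0.40 ± 0.10 in shNC cells (adjusted p = 0.00249). In shNRF2 cells the log2 fold change was 0.27 ± 0.11 (adjusted p = 0.0543), and it passed the threshold without shNC DMSO replicate 1 (adjusted p = 0.0465) or shNRF2 GNA replicate 3 (adjusted p = 0.0470) and, over all libraries, with upper-quartile factors (0.0331), library totals (0.0162), the filter at 1 CPM (0.0487) and the limma fits (0.0147 and 0.0134).

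TNFRSF12A (Fn14), the receptor for TWEAK, which has no death domain and signals through TRAF proteins, had the highest length-scaled level and was not called with GNA in either line. The gene lies on chromosome 16, bases 3018445 to 3022383. It had 72.9, 73.0 and 72.5 CPM in shNRF2 GNA and 71.6, 68.5 and 65.8 CPM in shNRF2 DMSO libraries, against 77.0, 83.9 and 82.6 CPM in shNC GNA and 77.3, 89.3 and 76.2 CPM in shNC DMSO libraries. Every shNRF2 library was below every shNC library, and the GNA and DMSO libraries overlapped in shNC cells. The log2 fold change with GNA was 0.08 ± 0.06 in shNRF2 cells (adjusted p = 0.346, 95% interval -0.05 to 0.22). In shNC cells it was 0.00 ± 0.06 (adjusted p = 0.973, 95% interval -0.13 to 0.13), with a sign that turns under the DESeq2 size factors. TNFRSF12A fell in shNRF2 against shNC cells by 0.24 ± 0.06 on the log2 scale in DMSO (adjusted p = 0.00491), a call lost without shNC DMSO replicate 2 (adjusted p = 0.0661). In GNA the log2 fold change was -0.16 ± 0.06 (adjusted p = 0.0701), called without shNC DMSO replicate 1 (adjusted p = 0.0418) or 2 (0.0443) or shNC GNA replicate 1 (0.0451), and when the 2 groups were fitted alone (0.0220). The ligand gene TNFSF12 averaged 0.618 to 0.899 CPM over the groups.

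**Figure D3:**
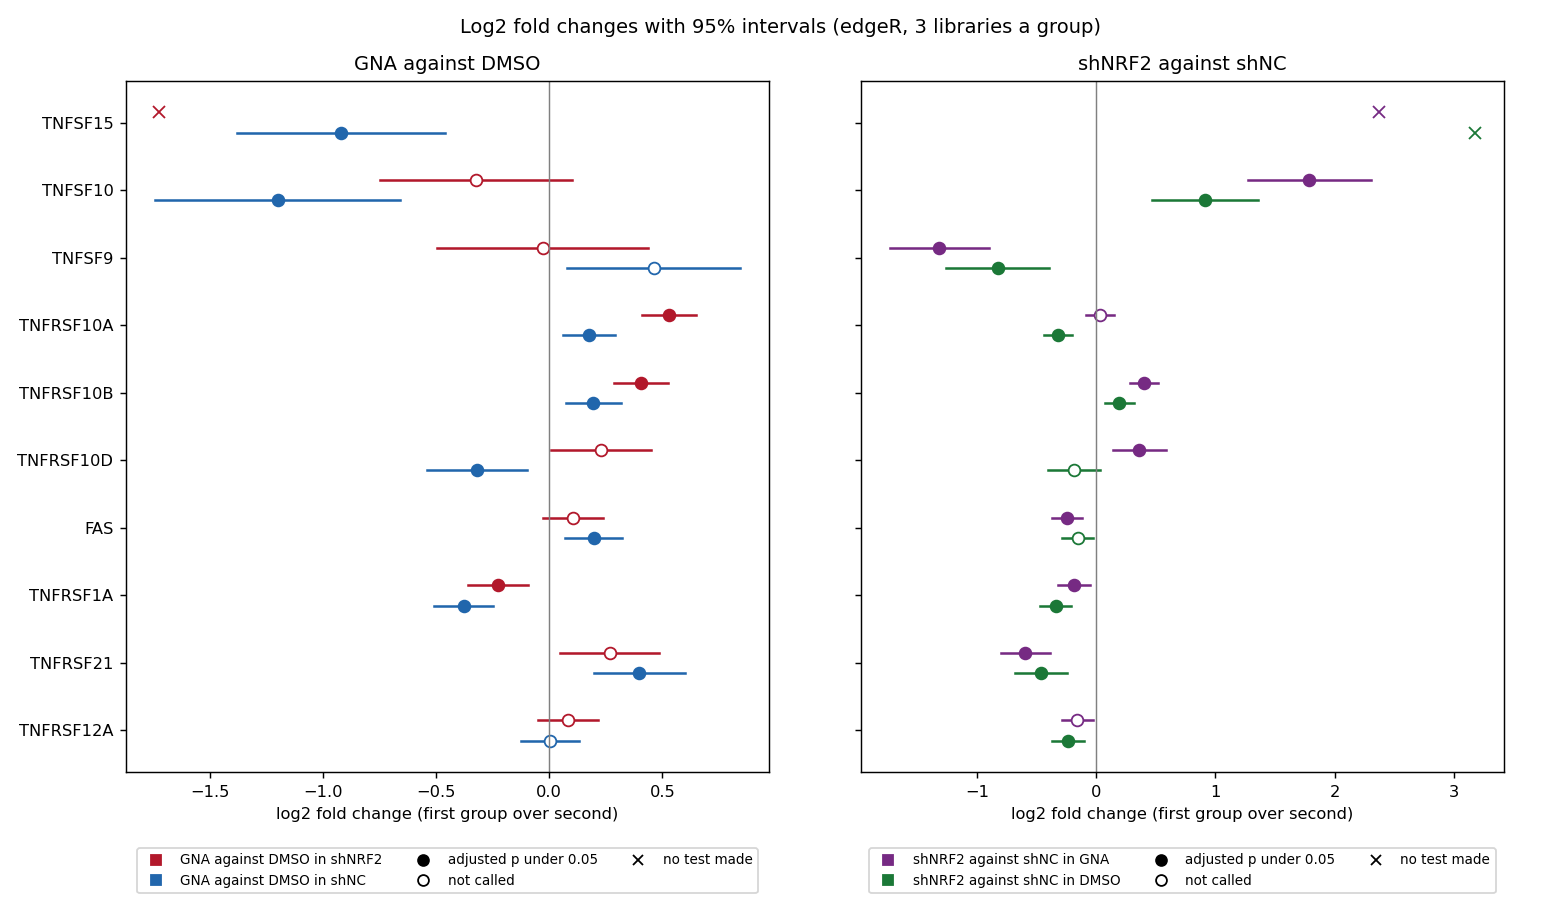
Log2 fold changes with 95% intervals from the edgeR fit, GNA against DMSO on the left and shNRF2 against shNC on the right; filled points have an adjusted p under 0.05, open points do not, and crosses mark TNFSF15 contrasts with no test. TNFSF15, TNFSF10 and TNFRSF10B lie to the right in each shNRF2 against shNC contrast, and TNFSF9, TNFRSF1A, TNFRSF21, TNFRSF12A and FAS lie to the left. In each GNA contrast TNFRSF10A, TNFRSF10B, TNFRSF21 and FAS lie to the right, with TNFRSF21 and FAS not called in shNRF2 cells. TNFSF15, TNFSF10 and TNFRSF1A lie to the left in each GNA contrast, and TNFRSF12A is close to 0 and not called in either.

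Counted over the members, GNA against DMSO in shNRF2 cells called 2 higher and 1 lower of 9 tested, beside 16.7% and 17% of 15653 genes tested. GNA against DMSO in shNC cells called 4 higher and 4 lower of 10, beside 14.6% and 16.1% of all genes. In shNRF2 against shNC cells, 3 were higher and 4 lower of 9 in GNA, beside 12.8% and 13.3% of all genes, and 2 were higher and 5 lower of 9 in DMSO, beside 16.8% and 18.3%. A response to GNA that differed between the lines was called for 2 of 9, TNFRSF10A and TNFRSF10D, both with a higher response in shNRF2 cells, beside 3.59% of all genes higher and 3.24% lower. The median log2 fold change over the 10 members was 0.09 in shNRF2 cells and 0.09 in shNC cells for GNA, beside 0.01 and 0.02 over all genes, and -0.06 in GNA and -0.21 in DMSO for the knockdown, beside 0.01 and 0.01. These shares are given as background only, since earlier results were known when the members were chosen, and the contrasts share libraries: each group enters 2 of the 4 contrasts. The 4 members called higher with GNA in shNC cells became 2 when replicate 2 of shNC DMSO or replicate 3 of shNC GNA was left out, the 1 called lower in shNRF2 cells became 0 without shNRF2 GNA replicate 1 or with library totals, and the 2 called higher with knockdown in DMSO became 1 without shNC DMSO replicate 2 or shNRF2 DMSO replicate 1. With GNA in shNRF2 cells the 2 called higher became 5 with library totals and 4 in the limma fits, and in shNC cells the 4 called lower became 2 with limma on log2(FPKM + 1). The 2 called differences of response became 1 in the limma fits and in 7 of 12 fits that each left out a library. Scaling by library totals moved the median of all genes by 0.10 in GNA against DMSO in shNC cells and turned the split of calls there to 3531 higher and 1542 lower, against 2284 higher and 2526 lower.

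Most other superfamily genes were too low to test. Of 15 further ligand genes 6 passed the low-count filter, and of 22 further receptor genes 7 did. TNFSF14 (LIGHT), the ligand of LTBR and TNFRSF14, had its group means in the same order as TNFSF10. It averaged 11.0 CPM in shNRF2 GNA, 13.8 CPM in shNRF2 DMSO, 5.81 CPM in shNC GNA and 8.23 CPM in shNC DMSO cells. It was higher in shNRF2 cells by a log2 fold change of 0.93 in GNA (adjusted p = 9.89e-06) and 0.75 in DMSO (adjusted p = 5.43e-05). With GNA it fell by 0.51 on the log2 scale in shNC cells (adjusted p = 0.00777). In shNRF2 cells, where TNFSF10 was not called, TNFSF14 fell by 0.33 (adjusted p = 0.0470). Of the 7 further receptors tested, GNA called 5 higher and 0 lower in shNRF2 cells and 2 higher and 0 lower in shNC cells. Beside these stand 16.7% higher and 17% lower of all genes in shNRF2 cells and 14.6% and 16.1% in shNC cells. Some of the 5 rest on few counts: in shNRF2 DMSO libraries CD40 had 3 to 8 counts and TNFRSF9 had 6 to 15. EDA2R, the ectodysplasin A2 receptor, averaged 122 CPM in shNRF2 GNA and 86.3 CPM in shNRF2 DMSO, and 108 CPM in shNC GNA and 73.4 CPM in shNC DMSO cells, and rose with GNA by a log2 fold change of 0.50 (adjusted p = 6.98e-08) and 0.56 (adjusted p = 1.86e-08).

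Downstream of the receptors, 19 of 20 genes of the death-inducing complex and its caspases passed the filter. GNA called 4 higher and 2 lower of the 19 in shNRF2 cells and 1 higher and 4 lower in shNC cells, and the knockdown called 3 higher and 5 lower in GNA and 0 higher and 9 lower in DMSO. The shares over all genes, higher and lower, were 16.7% and 17% for GNA in shNRF2 cells, 14.6% and 16.1% for GNA in shNC cells, 12.8% and 13.3% for the knockdown in GNA, and 16.8% and 18.3% in DMSO. The median log2 fold change of these genes in shNRF2 against shNC cells in DMSO was -0.18, beside 0.01 for all genes. MLKL, the effector of necroptosis, likewise responded more to GNA in shNRF2 than in shNC cells. It averaged 79.2 CPM in shNRF2 GNA and 58.2 CPM in shNRF2 DMSO, against 70.5 CPM in shNC GNA and 73.5 CPM in shNC DMSO cells, with a difference of response of 0.50 (adjusted p = 0.000241). RIPK3, a necroptosis kinase of the same list named after its values were seen, was close to absent, with 0 to 6 counts in a library. Necroptosis itself was not tested. BIRC3 (cIAP2), a ubiquitin ligase that restrains caspase-8 activation at TNF receptors, fell with GNA by 0.42 on the log2 scale in shNRF2 cells (adjusted p = 5.73e-06) and by 0.51 in shNC cells (adjusted p = 4.11e-07).

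TRADD, the adaptor of TNFRSF1A, averaged 4.19 CPM in shNRF2 GNA and 3.48 CPM in shNRF2 DMSO, against 7.82 CPM in shNC GNA and 3.90 CPM in shNC DMSO cells. It rose with GNA in shNC cells by a log2 fold change of 1.01 (adjusted p = 0.000198), and the change in shNRF2 cells was 0.27 (adjusted p = 0.358); the difference of -0.73 did not pass the threshold (adjusted p = 0.136). FADD and CASP8, named for their role after their values were seen, fell in shNRF2 against shNC cells in DMSO by 0.34 (adjusted p = 3.45e-05) and 0.26 (adjusted p = 0.000549) on the log2 scale. CFLAR, which encodes the caspase-8 inhibitor c-FLIP and was also named after its values were seen, was not called in any comparison (adjusted p = 0.147 to 0.851).

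All 26 genes of TRAF and NF-kB signalling passed the filter, and GNA called 4 higher and 4 lower in shNRF2 cells and 4 higher and 3 lower in shNC cells, while the knockdown called 3 higher and 3 lower in GNA and 6 higher and 4 lower in DMSO. These counts stand beside shares of all genes of 12.8% to 16.8% called higher and 13.3% to 18.3% called lower over the 4 contrasts. TRAF1, an adaptor that is itself a known NF-kB target, averaged 34.3 CPM in shNRF2 GNA and 15.4 CPM in shNRF2 DMSO, against 29.4 CPM in shNC GNA and 29.8 CPM in shNC DMSO cells, and its difference of response was 1.17 on the log2 scale (adjusted p = 4.02e-07). NFKBIA, the NF-kB inhibitor and target gene, averaged 98.9 CPM in shNRF2 GNA and 167 CPM in shNRF2 DMSO, against 177 CPM in shNC GNA and 187 CPM in shNC DMSO cells, with a difference of -0.68 (adjusted p = 3.34e-05). Of 5 transcription factors known to act on TRAIL receptor and FAS genes, DDIT3 (CHOP) had the largest rise with GNA, a log2 fold change of 2.18 in shNRF2 cells (adjusted p = 7.1e-18) and of 2.05 in shNC cells (adjusted p = 4.24e-16). DDIT3 was also higher in shNRF2 than in shNC cells, by 0.85 in GNA (adjusted p = 4.2e-10) and 0.72 in DMSO (adjusted p = 7e-07). A part of DDIT3 in the receptor changes was not tested, and no promoter window was found for TNFRSF10A, TNFRSF10B or TNFRSF10D.

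**Figure D4:**
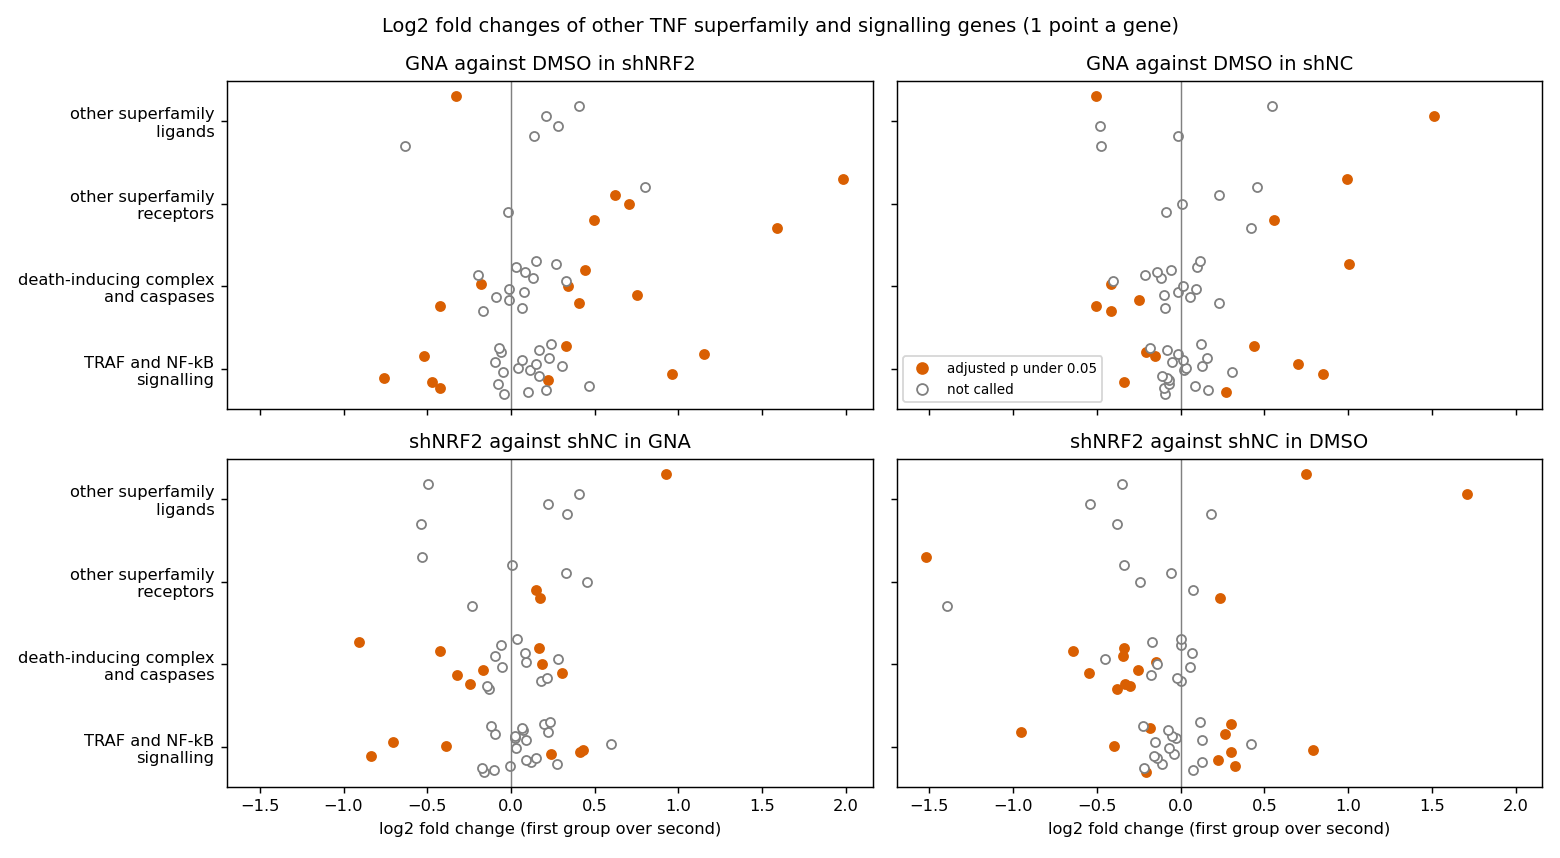
Log2 fold changes of the further superfamily ligands, receptors, death-inducing complex genes and TRAF and NF-kB genes that passed the low-count filter, 1 point a gene, in the 4 contrasts; filled points have an adjusted p under 0.05. The further receptors called with GNA in shNRF2 cells (5 of 7) all lie to the right of 0, and the death-inducing complex genes called in shNRF2 against shNC cells in DMSO (9 of 19) all lie to the left.

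The genes whose levels ran most like the 3 widest-ranging members over the 12 libraries were drawn from 9997 genes of at least 5 mean CPM. They were ROBO1, FGA and CADM1 for TNFSF15 (Pearson r of 0.993, 0.990 and 0.987 on log2(CPM + 1)). For TNFSF10 they were TNFSF14, C14orf132 and CARHSP1 (r of 0.946, 0.943 and 0.940), and for TNFSF9 they were PLCB4, CYP4F3 and DDX60 (r of 0.961, 0.955 and 0.954). The 12 points fall into 4 groups and come from shared libraries, so each r describes a likeness of group levels and has no test. FGA, which encodes the fibrinogen alpha chain, averaged 149 CPM in shNRF2 GNA and 211 CPM in shNRF2 DMSO, against 96.8 CPM in shNC GNA and 114 CPM in shNC DMSO cells, the same order of groups as TNFSF15 with a smaller range. CYP4F3, a fatty acid hydroxylase, averaged 12.2 CPM in shNRF2 GNA and 11.8 CPM in shNRF2 DMSO, against 32.1 CPM in shNC GNA and 20.9 CPM in shNC DMSO cells.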

How the data were processed

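Total RNA of 12 A549/DDP libraries was sequenced on the Illumina platform, per the labels' protocols. The authors deposited raw counts per gene and FPKM values for 61510 genes. The submitters' processing notes name GRCh38 and DESeq2; no aligner, counter, strand setting or annotation release is given in the sources used here. Counts divided by column totals and by 1 length for each gene gave back the authors' FPKM, to a relative tolerance of 0.001, in 100% of 9821 genes with at least 50 counts in every library, so the FPKM add no measurement. Single-cell data named in the series design were not analysed here.

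Counts were fitted in R 4.3.3 with edgeR 4.0.16 (filterByExpr, TMM, quasi-likelihood F test) over all 12 libraries with a coefficient for each group (8 residual degrees of freedom). The filter used a minimum count of 10 and a minimum total of 15 and left 15653 genes, which hold 99.8% of counts. CPM values use TMM-scaled library sizes. Adjusted p-values are Benjamini-Hochberg over all genes tested in a comparison, two-sided, and called means under 0.05. Alternatives were other scalings (DESeq2 1.42.0 size factors, upper quartile, library totals), other filters (none, or 1 CPM in 3 libraries), DESeq2, limma 3.58.1 on log2(FPKM + 1) and log2(FPKM + 0.1), a replicate block, a fit of the compared groups alone, and leaving out each library. Both limma fits keep the scaling by library totals that FPKM carry, so they and the fit with library totals are not separate checks. The fitting steps were tested on simulated data. Exon lengths and overlaps come from GENCODE 29, promoter windows from RefSeq GRCh38.p14; of each member's 50-base exon words, 0% to 1.03% occur in another gene.

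The members, gene lists and comparisons were chosen with earlier results of these data known. All 10 members were named in every comparison. From each further list the text names up to 3 called genes per direction and comparison, by size of change, with at least 1 CPM in the higher group.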

Additional observations from a re-analysis of the deposited data

Results flagged for a closer look

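The response to GNA differed between the lines, by the interaction term of the edgeR fit, for 2 members. For TNFRSF10D the response in shNRF2 cells exceeded that in shNC cells by 0.54792 on the log2 scale (adjusted p = 0.0274): its mean was 17.3 CPM in shNRF2 GNA and 14.8 CPM in shNRF2 DMSO cells, against 13.4 CPM in shNC GNA and 16.8 CPM in shNC DMSO cells. For TNFRSF10A the excess was 0.353497 (adjusted p = 0.00697): its mean was 81.6 CPM in shNRF2 GNA and 56.5 CPM in shNRF2 DMSO cells, against 79.8 CPM in shNC GNA and 70.7 CPM in shNC DMSO cells. The TNFRSF10A call held without any 1 of the 12 libraries, and the TNFRSF10D call was lost without 7 of them.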

How the results depend on the processing

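Of 1090 recomputed values of the 50 member results, 1011 kept their direction and side of the threshold, 38 lost the call, 22 gained it, 12 changed sign, and 7 untested TNFSF15 values moved by more than the spread between libraries. Members called with GNA in shNRF2 cells numbered 3, and 5 with library totals or with either limma fit; members with a called difference of response numbered 2, and 1 with either limma fit. Leaving out each library gave 2 to 4 and 1 to 2 for these, 6 to 9 for GNA in shNC cells (8 with all libraries), and 5 to 8 for the knockdown in GNA and 5 to 8 in DMSO (7 with all libraries in each). The signs that changed belonged to values near 0. The TNFRSF12A log2 fold change with GNA in shNC cells was -0.000331 with DESeq2 size factors, -0.000351 with DESeq2 and -0.0389 to 0.0813 when each library was left out. The TNFSF9 log2 fold change with GNA in shNRF2 cells was 0.0341 with library totals, 0.0236 and 0.0397 in the limma fits, and -0.135 to 0.134 when each library was left out. TNFSF15 in shNC cells, called by edgeR, was -0.18 on log2(FPKM + 1) (adjusted p = 0.0779), a scale that shrinks changes of low genes by construction; for other changes the cause was not tested. Counts over all genes that moved by over 1.5 times were 1430 and 1417 lower with GNA in shNC cells in the limma fits, and, for the difference of response, 301 and 274 higher and 329 lower in the limma fits and 314 to 337 lower without replicate 3 of shNC DMSO, replicate 2 of shNC GNA or replicate 1 of shNRF2 DMSO, against 562 higher and 507 lower. No pairing of libraries by replicate number was seen. Of 18 same-numbered pairs of deviations 0 correlated over 0.1, and 3 of 12 libraries correlated best with their own number. Low correlations cannot exclude a culture or batch shared by number, and the labels do not say. With the replicate block 3 members were called with GNA in shNRF2 cells and 8 in shNC cells, 7 with the knockdown at each treatment and 2 for the difference of response, and 0 of 50 member results changed. TNFSF15 and TNFSF10 rest on 16 to 53 counts in a shNC library, which limits their precision there.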
